A study of Mus musculus with 8 samples.

Results

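The 8 lymphocyte chemokine receptors described here are Ccr9, Ccr6, Cxcr4, Cxcr5, Cxcr6, Cxcr3, Ccr4 and Ccr8. They are the genes to which the array's probe-to-gene table assigns those names. Among 12520 genes tested, all 8 were measured, by 13 probe sets (short groups of probes against the same transcript). Splenic CD8 T cells of C57BL/6 mice had been positively selected on magnetic beads and kept for 18 h in a 10-fold excess over dendritic cells. CD11c-positive cells were then removed and 100 ng of total RNA was labelled for each Affymetrix mouse array. There were 4 groups of 2 arrays: wild-type T cells with non-pulsed dendritic cells (WT UN), and wild-type (WT N4), PKC theta knockout (PKC theta KO N4) and p50 cRel double knockout (p50 cRel DKO N4) T cells, all 3 kept with dendritic cells grown from bone marrow and loaded with N4, a peptide of ovalbumin. Knockout T cells without peptide were not analysed here, so a knockout difference present before stimulation and one that arose with it cannot be told apart. The antigen receptor of the T cells, the knockout alleles and whether the 2 arrays of a group stand for 2 mice or 2 cultures are not stated in the labels. What the p-values weigh is thus the scatter among these 8 arrays, some or all of which may be technical.

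Chemokine receptors are G protein-coupled receptors that steer migrating cells along gradients of small secreted proteins, the chemokines. Naive lymphocytes carry receptors that keep them recirculating through spleen, lymph nodes and bone marrow. Activated CD8 T cells exchange some of these for receptors that lead to inflamed tissue. PKC theta carries the signal of the T cell receptor towards NF-kB, the transcription factor family to which p50 and cRel belong, so the study's genotypes address how much of the response to peptide needs each.

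The DNA just before the transcription start is shown for the 3 receptors with the largest differences between WT N4 and WT UN cells. RefSeq (GRCm38.p6) promoter windows were held for 7 of the 8 receptors, with 2 starts for Ccr6, and Cxcr5 was not among them. The 250 bases before each start are given, 5′ to 3′ on the strand of the gene. Capitals mark the letters CACCC on either strand, the core that Krüppel-like factors such as Klf2 bind, and the κB motif of NF-kB.

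Ccr9 (chr9:123766961-123767210, plus strand): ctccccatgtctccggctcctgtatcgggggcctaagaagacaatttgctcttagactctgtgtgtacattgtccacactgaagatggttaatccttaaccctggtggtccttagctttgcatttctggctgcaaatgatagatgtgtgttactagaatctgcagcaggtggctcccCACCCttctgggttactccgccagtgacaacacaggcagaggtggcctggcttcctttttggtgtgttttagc
Cxcr4 (chr1:128592300-128592549, minus strand): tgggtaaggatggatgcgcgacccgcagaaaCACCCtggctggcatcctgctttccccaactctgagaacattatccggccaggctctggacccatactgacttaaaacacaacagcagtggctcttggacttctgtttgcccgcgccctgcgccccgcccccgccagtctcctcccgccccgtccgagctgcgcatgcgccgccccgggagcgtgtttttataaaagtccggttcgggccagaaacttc
Ccr6, upstream start (chr17:8235793-8236042, plus strand): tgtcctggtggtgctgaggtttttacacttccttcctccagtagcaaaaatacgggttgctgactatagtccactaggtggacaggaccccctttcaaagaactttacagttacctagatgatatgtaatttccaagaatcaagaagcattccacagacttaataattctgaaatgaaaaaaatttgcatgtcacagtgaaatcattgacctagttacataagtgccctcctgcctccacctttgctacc
Ccr6, downstream start (chr17:8242276-8242525, plus strand): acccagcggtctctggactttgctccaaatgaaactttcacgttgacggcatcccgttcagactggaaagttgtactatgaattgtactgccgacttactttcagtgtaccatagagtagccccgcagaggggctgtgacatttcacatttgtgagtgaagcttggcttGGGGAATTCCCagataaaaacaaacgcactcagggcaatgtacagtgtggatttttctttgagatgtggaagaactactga

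The CACCC core was in 4 of the 8 receptor windows, 73 bases before the start in Ccr9, 219 in Cxcr4, 81 in Ccr4 and 140 in Ccr8, counted to its outermost base. Among all 32851 windows of this length 52% held it, so its presence in these genes is ordinary. The κB motif was in 7.25% of all windows. Among the receptors it was in the downstream start of Ccr6, where 2 overlapping matches begin 81 and 80 bases before the start. These are matches of letters and not measured binding sites.

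Levels are given as log2(signal + 16), where the signal is the array's linear intensity. On this scale 1 unit is a doubling for bright transcripts, and the change of dim ones is understated. Levels of different genes were not compared, because their probes differ. With 2 arrays per group, the arrays of 2 groups often separate without a true difference. Statements that groups did not overlap are therefore descriptions and not tests. The arrays had median signals between 33.8 and 70.5. Rel, which encodes cRel, was at 6.05 ± 0.19 (SD, n = 2) in p50 cRel DKO N4 cells and 9.67 ± 0.21 in WT N4 cells (limma adjusted p = 0.000984). The transcript of the gene that encodes p50 was not examined here. Prkcq, which encodes PKC theta, was at 10.88 ± 0.18 in PKC theta KO N4 and 11.54 ± 0.28 in WT N4 cells (limma adjusted p = 1), and the labels do not say where its probes lie relative to the deletion. Xist, made from an inactive X chromosome, read 12.27 to 12.57 in the 4 knockout samples, 5.18 and 6.65 in WT N4 cells, and 6.05 and 11.84 in WT UN cells. Eif2s3y, a gene of the Y chromosome, read 10.65 to 11.06 in WT UN, 10.78 to 11.2 in WT N4 and 5.42 to 6.73 in the knockout samples. Genotype and sex-linked transcripts therefore cannot be told apart in the knockout comparisons. The 2 WT UN arrays differed in Xist, so comparisons with WT UN also mix peptide with sex-linked transcripts. Cxcr3 lies on the X chromosome.

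The T cell genes Cd3e (11.85 to 12.37) and Cd8b1 (12.45 to 13.33) were bright on every array. Cd8a was lower in WT UN (11.15 and 11.62) than on the N4 arrays (12.27 to 13.29). Of 9 CD8 T cell genes measured, 5 were called higher and 0 lower in WT N4 than in WT UN cells. The WT UN arrays also read transcripts of other cells strongly. The median level of 18 B cell markers was 11.65 and 12.30 on the WT UN arrays and between 6.57 and 8.40 on the N4 arrays. That of 26 dendritic cell and macrophage markers was 10.98 and 11.50 against 7.25 to 8.04, and that of 10 neutrophil markers 10.44 and 11.23 against 5.56 to 6.40. The summed signal of the B cell markers ran from 69709 to 100866 in WT UN, 5969 to 13435 in WT N4, 9045 to 15529 in PKC theta KO N4 and 14005 to 15134 in p50 cRel DKO N4 cells. Among single markers, the B cell gene Cd79a read at least 11.77 in WT UN and at most 8.41 in N4 cells, and the macrophage receptor Csf1r at least 12.80 and at most 8.55. In such mixed RNA, fewer cells of a type and less RNA per cell cannot be told apart.

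**Figure D1:**
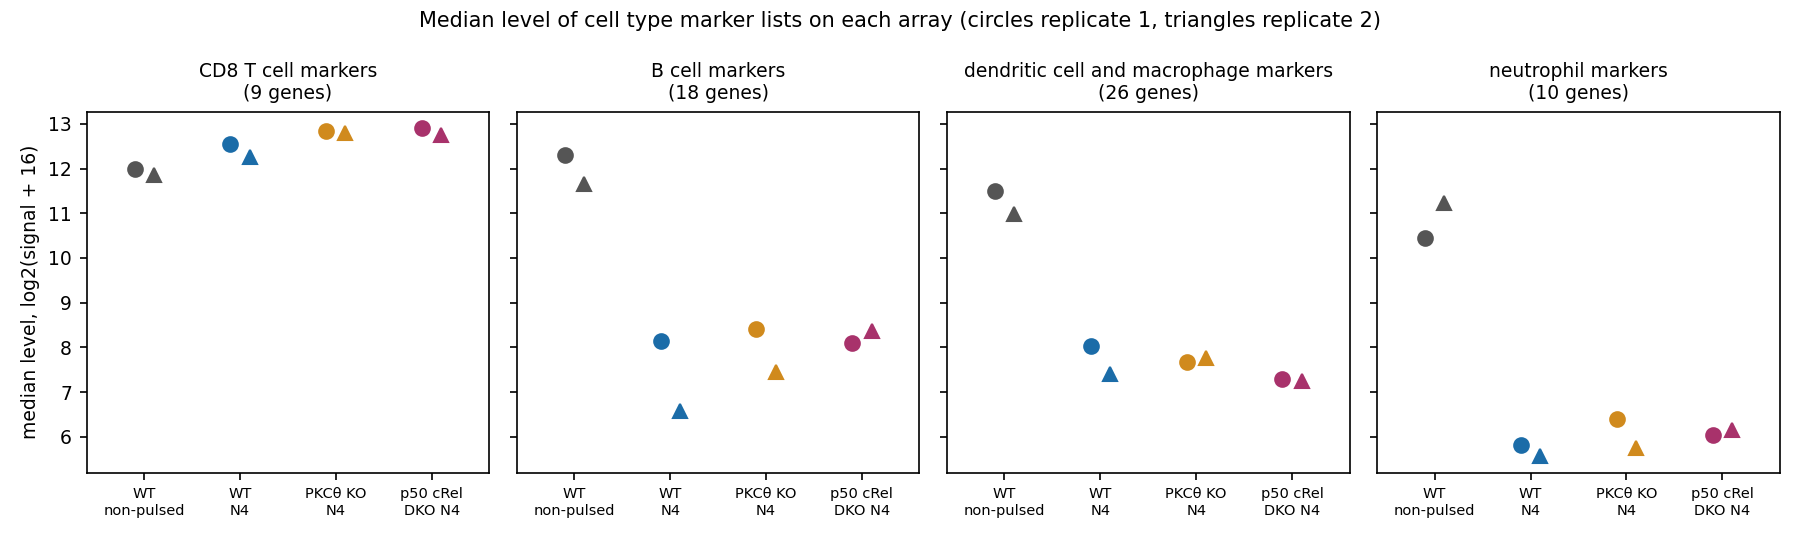
Median level of 4 lists of cell type markers on each of the 8 arrays, in log2(signal + 16), by group; circles are replicate 1 and triangles replicate 2. The B cell, dendritic cell and macrophage, and neutrophil lists stand higher on both WT UN arrays than on all 6 N4 arrays, while the CD8 T cell list is lowest there.

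The first comparison sets wild-type cultures with N4 against those with non-pulsed dendritic cells, whose RNA also read markers of other cells more strongly. From here on, fell and rose describe this mixed RNA and not the T cells alone. Ccr9, Ccr6, Cxcr4 and Cxcr5 fell with N4, Cxcr6 was lower but did not pass the test, and Cxcr3, Ccr4 and Ccr8 did not pass either. That is 4 of 8 receptors lower and 0 higher, against 23.5% of all 12520 genes lower and 17.2% higher (limma, Benjamini-Hochberg adjusted p under 0.05). At an unadjusted p under 0.05, 5 receptors were lower and 0 higher, while 6060 of all genes differed. The median difference of the 8 receptors was -1.61 and that of all genes -0.10. Of the called genes 42.3% were higher with N4, a share that became 52.6% when the arrays were quantile normalized and 61.1% when each was centred on its median, with the median of all genes then at 0.09 and 0.30.

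Ccr9, the receptor for Ccl25 that directs lymphocytes to the small intestine and thymus, had the largest difference of the 8. It read 11.97 and 12.87 in WT UN cells and 5.78 and 6.60 in WT N4 cells, signals of 3990 and 7500 against 39.1 and 81.3. The groups were far apart and both WT N4 arrays were close to dim. Ccr9 fell by 6.23 (SE 0.35, limma adjusted p = 1.46e-05), 75-fold on the log2(signal + 16) scale, by 6.19 within replicate number 1 and by 6.27 within number 2.

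Ccr9 was also read by 4 further probe sets. The probe set used carries the suffix _x_at, which Affymetrix gives to probe sets whose probes may also match other transcripts. Probe set 1421920_a_at fell by 5.67 (SE 0.42) and 1421919_a_at by 4.66 (SE 0.49) in a fit with every probe set as a feature (limma adjusted p = 0.000109 and 0.000391). Probe sets 1436065_at and 1442758_at had means below the filter of 5.38, and 1436065_at gave discordant readings of 7.58 and 149 in signal on the WT UN arrays. In the 3 brighter probe sets WT UN was highest and p50 cRel DKO N4 next.

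**Figure D2:**
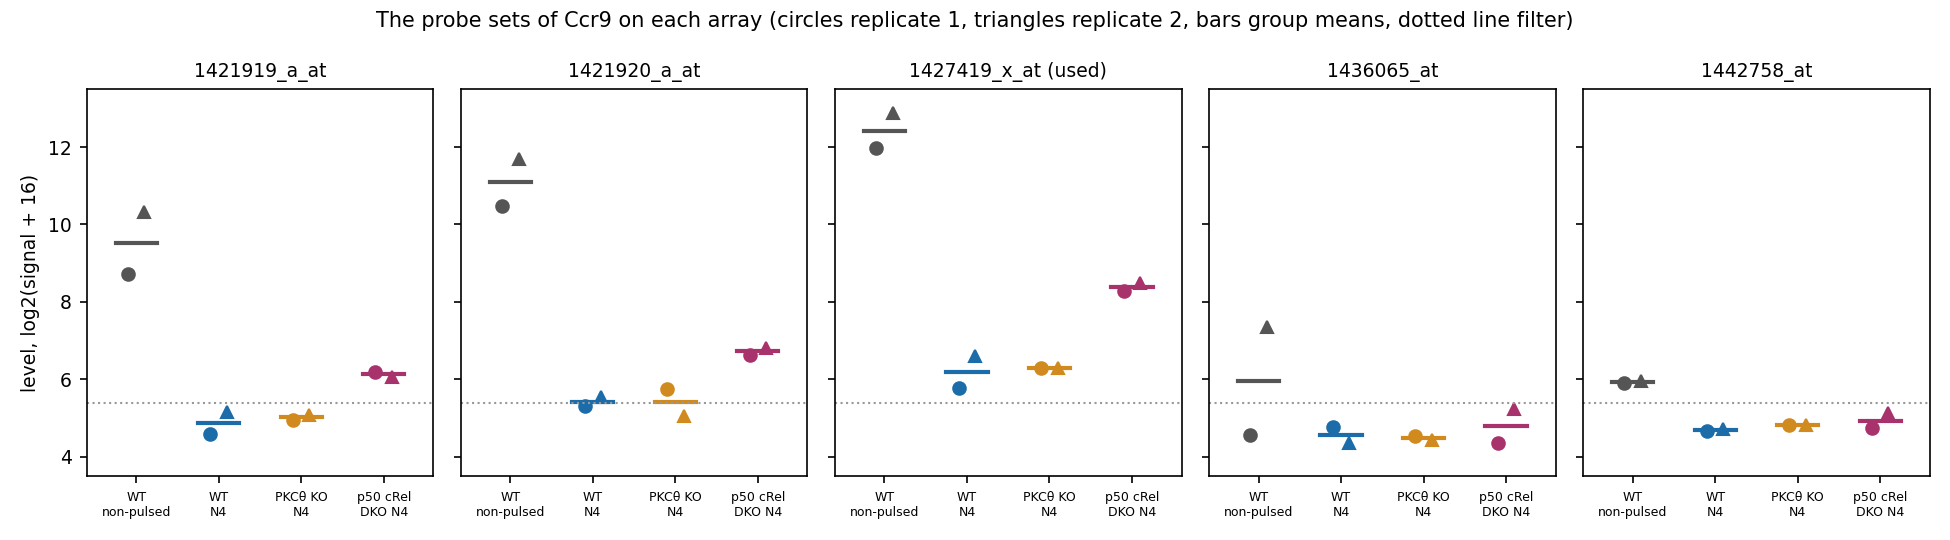
Level of each of the 5 Ccr9 probe sets on the 8 arrays, in log2(signal + 16), by group; circles are replicate 1, triangles replicate 2, bars group means and the dotted line the filter at 5.38. In the 3 brighter probe sets the p50 cRel DKO N4 arrays lie above the WT N4 and PKC theta KO N4 arrays and below the WT UN arrays.

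Cxcr4, the receptor for Cxcl12 that holds cells in the bone marrow and takes part in lymph node entry, read 11.72 and 11.47 in WT UN cells. In WT N4 cells it read 7.91 and 9.09. The groups did not overlap, but the WT N4 arrays differed from each other by more than the WT UN arrays did. Cxcr4 fell by 3.09 (SE 0.53, limma adjusted p = 0.00202), with differences of -3.82 and -2.37 within replicate numbers 1 and 2.

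Ccr6, the receptor for Ccl20 found on B cells and some T cells, read 10.01 and 10.34 in WT UN cells and 7.22 and 7.31 in WT N4 cells. The spread within each group was small beside this gap. Ccr6 fell by 2.91 (SE 0.25, limma adjusted p = 7.28e-05), 7.50-fold.

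Cxcr5, the receptor for Cxcl13 that takes B cells and follicular T cells into B cell follicles, read 10.79 and 10.43 in WT UN cells and 8.82 and 8.33 in WT N4 cells. The groups did not overlap. It fell by 2.04 (SE 0.25, limma adjusted p = 0.000352), 4.11-fold. B cells express both Cxcr5 and Ccr6, and the 18 B cell markers measured all fell in this comparison, with a median of -4.23. Dendritic cell and macrophage markers had a median of -3.81 and neutrophil markers one of -4.19. The part of these cells in the differences of Ccr9, Cxcr4, Ccr6, Cxcr5 and the other receptors was not tested.

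Cxcr6, the receptor for Cxcl16 found on effector and tissue-resident CD8 T cells, read 11.25 and 11.34 in WT UN cells and 9.72 and 10.52 in WT N4 cells. Both WT N4 arrays were lower. The difference of -1.18 (95% confidence interval -2.14 to -0.23) narrowly missed the test at limma adjusted p = 0.0511, and it passed in 7 of 19 alternatives, with adjusted p between 0.00729 and 0.256. Among these were the fits without WT N4 replicate 2 (-1.58, limma adjusted p = 0.0315) and without either PKC theta KO N4 array (limma adjusted p = 0.00729 and 0.00736). It missed the test further without WT N4 replicate 1 (-0.78, limma adjusted p = 0.256) and without either WT UN array. Its second probe set, 1422812_at, differed by -1.11 (SE 0.61).

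Cxcr3, the receptor for the interferon-induced chemokines Cxcl9, Cxcl10 and Cxcl11 and a mark of effector CD8 T cells, read 9.67 and 10.45 in WT UN cells and 10.15 and 9.60 in WT N4 cells. The groups overlapped. The difference was -0.18 (95% confidence interval -0.83 to 0.46, limma adjusted p = 0.651), 0.22 with median-centred arrays, and its replicate numbers gave 0.48 and -0.85.

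Ccr4, the receptor for Ccl17 and Ccl22 found on skin-homing and helper T cells, read 5.19 and 6.06 in WT UN cells and 6.22 and 6.52 in WT N4 cells. Ccr8, the receptor for Ccl1, read 4.25 and 6.04 in WT UN cells and 5.70 and 6.62 in WT N4 cells. Both are dim, with signals between 3.07 and 82.3 on all arrays, and the stricter filter on low values removed them. Ccr4 differed by 0.74 (95% confidence interval -0.15 to 1.64, limma adjusted p = 0.17) and Ccr8 by 1.01 (-0.32 to 2.34, limma adjusted p = 0.207). Both passed as higher after quantile normalization (Ccr4 1.08, Ccr8 1.33) or median centring (1.14 and 1.41), and Ccr8 also without WT UN replicate 2 (1.91), with adjusted p between 0.0267 and 0.64 for Ccr4 and between 0.0279 and 0.886 for Ccr8 over the alternatives.

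**Figure D3:**
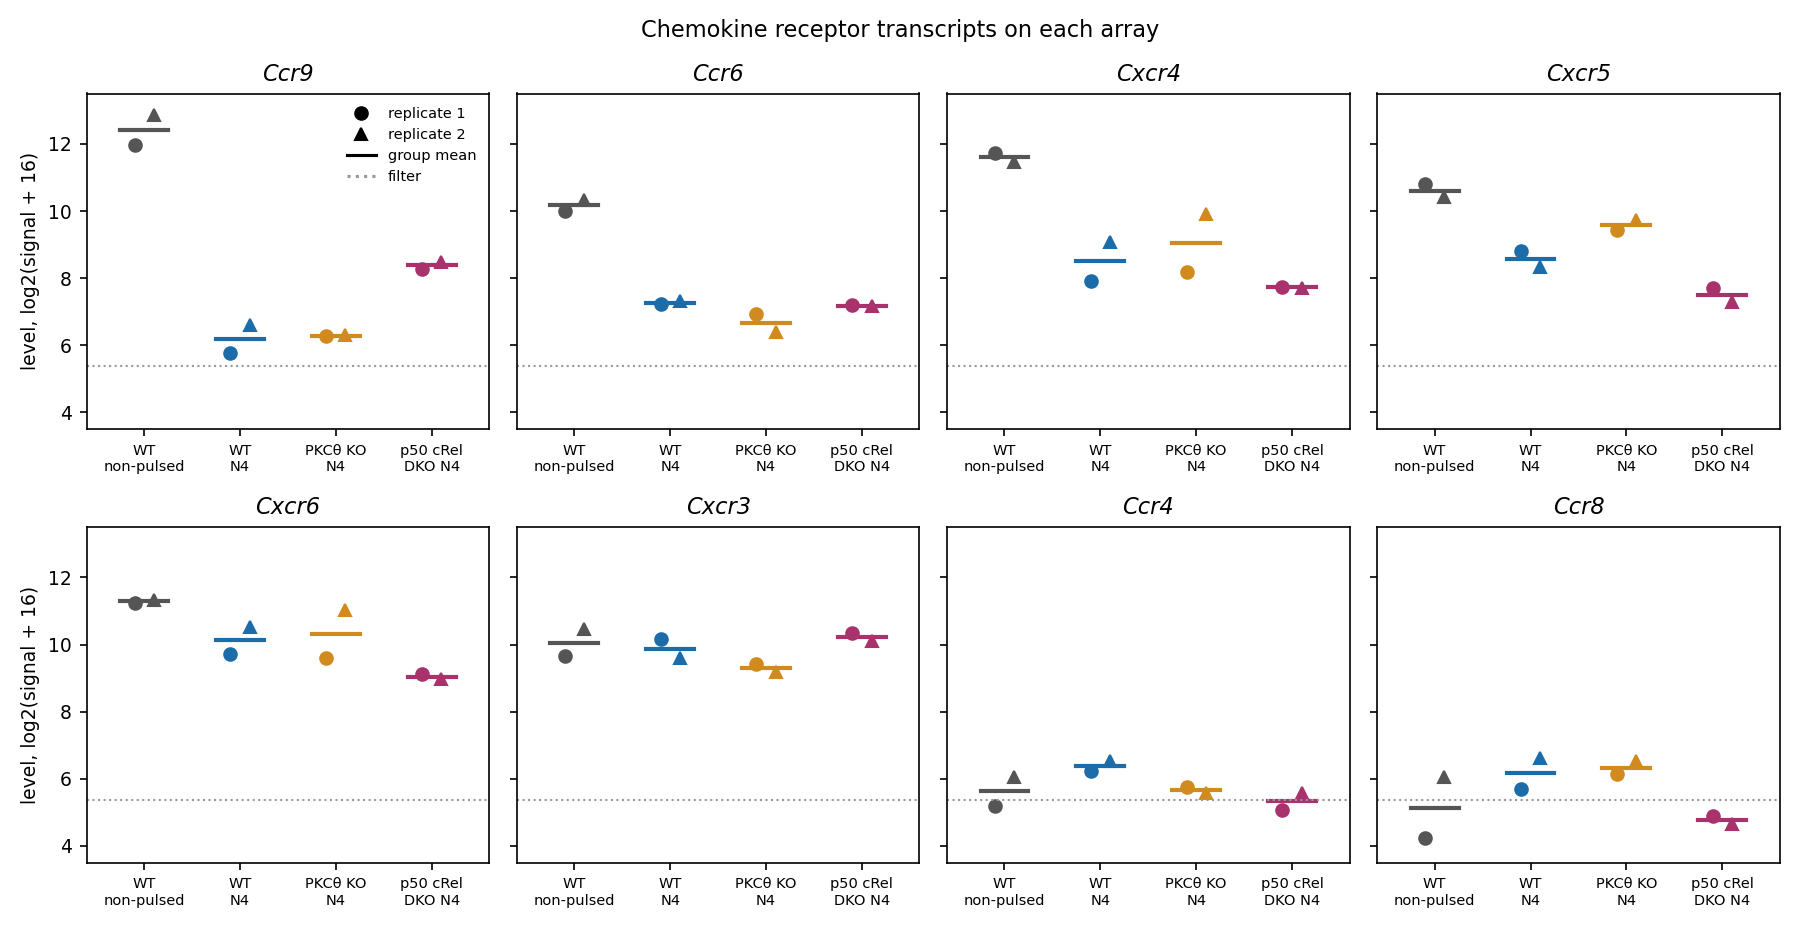
Level of each of the 8 receptors on each array, in log2(signal + 16), by group; circles are replicate 1, triangles replicate 2, bars group means and the dotted line the filter at 5.38. Ccr9, Ccr6, Cxcr4 and Cxcr5 stand highest on the WT UN arrays, and among the N4 arrays Ccr9 is highest and Cxcr5 lowest in p50 cRel DKO N4 cells.

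The same 4 receptors were lower than WT UN in both knockouts with peptide. These comparisons share the WT UN arrays, so they are not separate tests, and genotype and peptide differ together in them. All 18 B cell and all 10 neutrophil markers were lower in both as well. The B cell medians were -3.48 in PKC theta KO N4 and -3.54 in p50 cRel DKO N4 cells. The part of other cells was not tested. In PKC theta KO N4 cells 4 of 8 receptors were lower, against 24% of all genes. Ccr9 differed by -6.13, Ccr6 by -3.51, Cxcr4 by -2.55 and Cxcr5 by -1.04, the last lost without WT UN replicate 1 (-0.86, limma adjusted p = 0.0688), without PKC theta KO N4 replicate 1 (-0.89, limma adjusted p = 0.0594) and with median-centred arrays (-0.63, limma adjusted p = 0.234), within a range of 0.00296 to 0.234 over its alternatives. Ccr8, which did not pass there (1.18), passed as higher after quantile normalization (1.51), median centring (1.59) or without WT UN replicate 2 (2.08). Cxcr3 (-0.77, limma adjusted p = 0.059) passed as lower in 4 of 19 alternatives, among them without WT UN replicate 1 (-1.16) and without either WT N4 array (-0.77), and read -0.38 without WT UN replicate 2. Cxcr6 (-0.99, limma adjusted p = 0.0933) passed as lower without PKC theta KO N4 replicate 2 (-1.70) and read -0.28 without replicate 1, without which Cxcr4 also moved, to -1.69. In p50 cRel DKO N4 cells 5 of 8 were lower, against 22.8% of all genes. Ccr9 differed by -4.04, Cxcr4 by -3.87, Cxcr5 by -3.11, Ccr6 by -3.00 and Cxcr6 by -2.25.

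Between PKC theta KO N4 and WT N4 cells 0 of the 8 receptors passed the test by limma, where 0.024% of all genes passed, and 2 of the 8 (Ccr6 and Cxcr5) had an unadjusted p under 0.05. Across all genes 371 had such a p. Cxcr5 read 9.43 and 9.72 in PKC theta KO N4 cells, above both WT N4 arrays. Its difference was 1.00 (95% confidence interval 0.44 to 1.56, limma adjusted p = 0.923).

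The other receptors did not pass the test in the PKC theta knockout, and their differences had both signs. For Ccr6, Cxcr3 and Ccr4 both arrays of this knockout read below both WT N4 arrays, which with 2 arrays per group does not show a difference. Ccr6 read 6.94 and 6.39 there (difference -0.60, 95% confidence interval -1.17 to -0.03). Ccr9 read 6.28 and 6.30 (0.10, -0.70 to 0.89), at the level of WT N4 cells. Cxcr4 read 8.18 and 9.91 and Cxcr6 9.59 and 11.02, and for both genes the PKC theta KO N4 arrays lay further apart than the WT N4 arrays did. Cxcr3 read 9.41 and 9.18 (-0.58, -1.23 to 0.06), Ccr4 5.76 and 5.58 (-0.70, -1.59 to 0.20) and Ccr8 6.13 and 6.53 (0.17, -1.16 to 1.5). With intervals of this width, these arrays do not show that the receptors are the same without PKC theta.

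In p50 cRel DKO N4 cells Ccr9 stood above WT N4 cells. It read 8.28 and 8.49, signals of 294 and 344, against 5.78 and 6.60. The groups did not overlap. Ccr9 rose by 2.19 (SE 0.35, limma adjusted p = 0.0375), 4.56-fold, while staying far below WT UN. It was 1 of 8 receptors higher, against 0.248% of all genes, and 0 of 8 were lower, against 0.272%. At an unadjusted p under 0.05, 1 receptor was higher and 4 were lower, while 788 of all genes differed.

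The call for Ccr9 held in 9 of 19 alternatives, over which the difference lay between 1.59 and 2.60 and the adjusted p between 0.00454 and 0.333. It was lost without WT N4 replicate 1 (1.78, limma adjusted p = 0.127), PKC theta KO N4 replicate 1 or 2 (limma adjusted p = 0.059 and 0.0578), or p50 cRel DKO N4 replicate 1 (2.30, limma adjusted p = 0.277) or 2 (2.08, limma adjusted p = 0.333). In the fit of every probe set the probe set used had a limma adjusted p of 0.0777, while 1421920_a_at differed by 1.31 (SE 0.42) and 1421919_a_at by 1.26 (SE 0.49), neither past the test (limma adjusted p = 0.636 and 0.884). Against the PKC theta knockout, where Ccr9 read 6.28 and 6.30, the difference was 2.09 (SE 0.35, limma adjusted p = 0.0504), past the test in 7 of 19 alternatives, with adjusted p between 0.00748 and 0.368. Leaving out any single array of WT UN or WT N4 was enough for it to pass (limma adjusted p between 0.0271 and 0.0396).

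Other cells' markers were also compared between p50 cRel DKO N4 and WT N4 cells. By limma 0 of 18 B cell, 0 of 26 dendritic cell and macrophage and 0 of 10 neutrophil markers were called. Of all genes only 0.248% were called higher and 0.272% lower there, so these counts do not show that the markers were alike. The median differences were 0.56, -0.32 and 0.28. At an unadjusted p under 0.05 the B cell counts were 4 higher and 0 lower. Those for dendritic cells and macrophages were 1 and 5, and those for neutrophils 0 and 1. Among all 12520 genes 788 had such a p. The part of these cells in the difference of Ccr9 was not tested.

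Cxcr5 separated the double knockout from the PKC theta knockout. It read 7.71 and 7.29 in p50 cRel DKO N4 cells and 9.43 and 9.72 in PKC theta KO N4 cells, with WT N4 between them at 8.82 and 8.33. The 3 N4 groups did not overlap. In the double knockout it differed by -2.07 (95% confidence interval -2.64 to -1.51, limma adjusted p = 0.0148), 4.21-fold lower.

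Cxcr5 was 1 of 8 receptors lower in this comparison, against 0.192% of all genes, and 0 of 8 were higher, against 0.24%. At an unadjusted p under 0.05, 2 receptors were higher (Ccr9 and Cxcr3) and 4 lower (Cxcr5, Cxcr6, Ccr8 and Cxcr4), while 897 of all genes differed. The call held in 14 of 19 alternatives, with adjusted p between 0.00443 and 0.191. It was lost without PKC theta KO N4 replicate 2 (-1.93, limma adjusted p = 0.1) and without p50 cRel DKO N4 replicate 1 (-2.29, limma adjusted p = 0.0993) or 2 (-1.86, limma adjusted p = 0.191), and narrowly with median-centred arrays or without the mean-variance trend (limma adjusted p = 0.0509 and 0.0536). The 18 B cell markers differed by a median of 0.13 between these groups and 0 were called by limma (2 lower and 0 higher at an unadjusted p under 0.05). Against WT N4 cells, which share the double knockout arrays with this comparison, Cxcr5 differed by -1.07 (95% confidence interval -1.64 to -0.51, limma adjusted p = 0.162).

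The remaining receptors did not pass the test in the double knockout. Cxcr6 read 9.11 and 8.98, below every other array (-1.07 from WT N4, 95% confidence interval -2.02 to -0.11). Cxcr4 read 7.75 and 7.71, also the lowest of the 8 arrays (-0.77, -1.98 to 0.44). Both double knockout arrays were close to each other for these genes, unlike the other N4 groups. Ccr8 read 4.90 and 4.64 (-1.39, -2.72 to -0.06) and Ccr4 5.07 and 5.58 (-1.04, -1.93 to -0.14). Cxcr3 read 10.35 and 10.09 (0.34, -0.31 to 0.98) and Ccr6 7.19 and 7.17 (-0.09, -0.66 to 0.48), so Ccr6 lay within 0.15 of WT N4 in each replicate number.

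**Figure D4:**
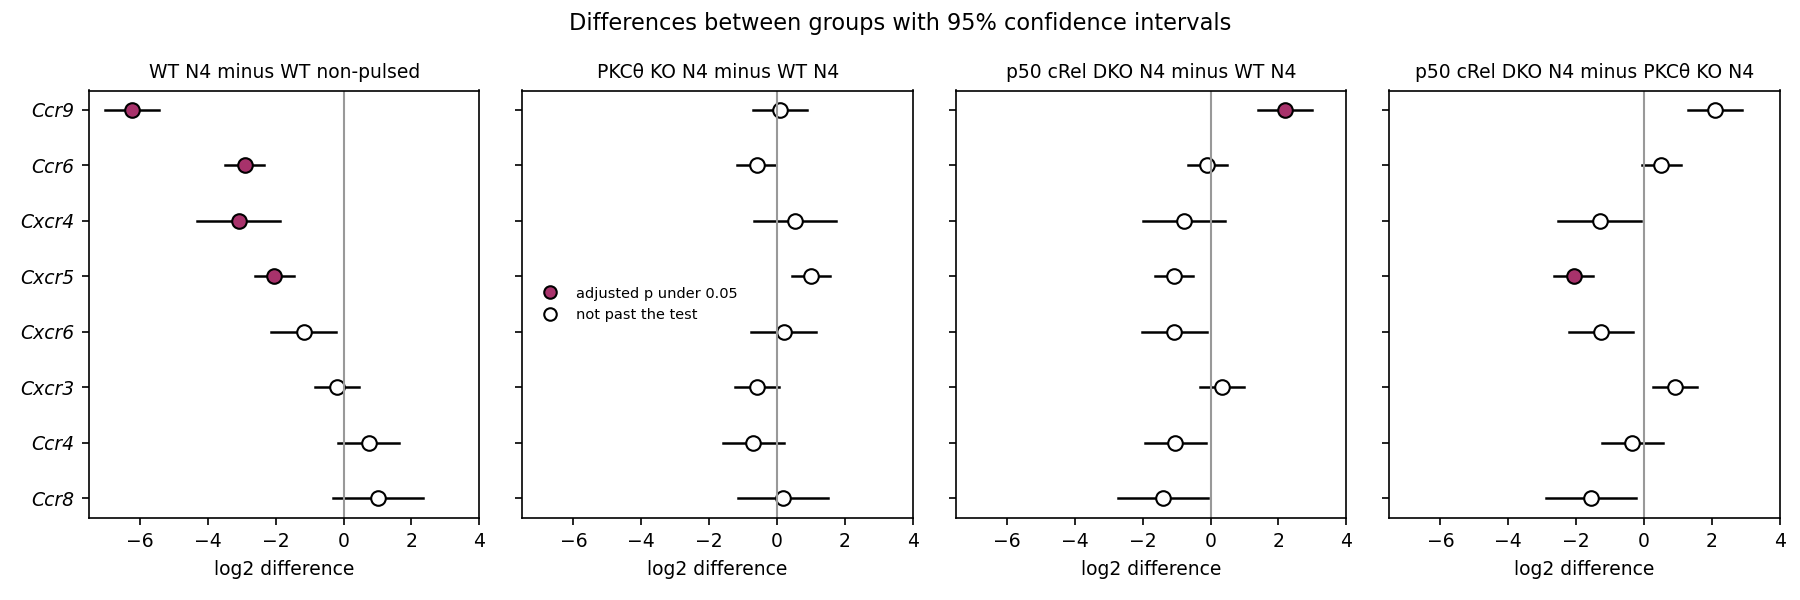
Difference between groups for each of the 8 receptors, in log2 units, with the 95% confidence interval as a line, in 4 comparisons; filled points passed limma at an adjusted p under 0.05. Ccr9, Ccr6, Cxcr4 and Cxcr5 are filled in the wild-type comparison, Ccr9 in the double knockout against WT N4, and Cxcr5 in the double knockout against the PKC theta knockout.

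Ordered by group mean, Ccr9 ran from WT UN (12.42) through p50 cRel DKO N4 (8.38) to PKC theta KO N4 (6.29) and WT N4 (6.19), of which the last pair differed by less than the spread between arrays. Cxcr5 ran from WT UN (10.61) through PKC theta KO N4 (9.57) and WT N4 (8.57) to p50 cRel DKO N4 (7.50), with neighbours that did not overlap. Cxcr4 and Cxcr6 had the same order as Cxcr5, but their WT N4 and PKC theta KO N4 arrays overlapped. Ccr6 was high in WT UN (10.18) and between 6.67 and 7.27 in the N4 groups.

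Across the 8 arrays Cxcr4 and Cxcr6 had a Pearson's r of 0.94, Ccr9 and Ccr6 0.94, Cxcr4 and Cxcr5 0.87 and Cxcr5 and Cxcr6 0.86. These points share the large step between WT UN and N4 arrays, and the r values are a description of 8 arrays. The genes whose levels were most like a receptor's, by the same r over 12520 genes, were Pik3r3 for Ccr9 (0.995), Nhlrc3 for Ccr6 (0.997), St6gal1 for Cxcr4 (0.994), Dppa5a for Cxcr5 (0.992), Ttc5 for Cxcr6 (0.984), Stxbp4 for Cxcr3 (0.972), Rala for Ccr8 (0.974) and Brat1 for Ccr4 (0.927). Next in likeness came Alkbh4 and 1810062O18Rik for Ccr9, Rin3 and Slc40a1 for Ccr6, Zfc3h1 and Rasgrp2 for Cxcr4, Ccl9 and Mreg for Cxcr5, Anxa2 and Ppp1r15a for Cxcr6, Irgm2 and Mast1 for Cxcr3, Trim46 and Rps6ka6 for Ccr8 and Igf1r and Nr6a1 for Ccr4.

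Ccr9 and Cxcr6 lie near each other on chromosome 9, in the RefSeq gene order Lztfl1, Ccr9, Fyco1, Cxcr6, Xcr1, Ccr1. Between WT N4 and WT UN cells Fyco1, an autophagy adaptor between the 2 receptors, fell by 1.79 (limma adjusted p = 0.000701) and Lztfl1 differed by -0.52 (limma adjusted p = 0.171). In the double knockout against WT N4 Fyco1 differed by -0.26 and Lztfl1 by -0.04, beside the rise of 2.19 in Ccr9.

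Among the chemokines that bind the 8 receptors, 11 of 12 listed were measured. With N4 in wild-type cells 2 of the 11 fell and 0 rose, against 23.5% of all genes lower and 17.2% higher. The count thus does not set the ligands apart from other genes. Cxcl16, the ligand of Cxcr6, read 10.63 and 10.50 in WT UN and 7.55 and 7.85 in WT N4 cells and fell by 2.87 (SE 0.22, limma adjusted p = 5.22e-05). Ccl22, a ligand of Ccr4 made by dendritic cells, fell by 2.13 (SE 0.44, limma adjusted p = 0.00498), from 12.39 and 13.09 to 11.35 and 9.88, and differed by -1.39 without WT N4 replicate 2. The 26 dendritic cell and macrophage markers moved with these ligands, 24 of them lower, and their part was not tested.

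The other 9 ligands did not pass the test. Ccl25, Ccl8 and Cxcl10 differed by 0.13, 0.07 and 0.05, Ccl17, Cxcl11 and Cxcl13 by -0.39, -0.41 and -0.50, and Ccl1, Cxcl9 and Cxcl12 by 1.28, 1.15 and 0.88. The list's median was 0.05 and that of all genes -0.10, and 2 ligands passed as higher after either rescaling. None of the 11 passed between N4 groups by limma, where few genes of any kind passed. At an unadjusted p under 0.05, 0 were higher and 0 lower in the PKC theta knockout against WT N4. Across all genes 371 differed there. In the double knockout 0 were higher and 2 lower against WT N4, where 788 of all genes differed. Against the PKC theta knockout 0 were higher and 5 lower, with a list median of -0.74, where 897 of all genes differed. Ccl22 in the double knockout differed by -1.69 from the PKC theta knockout (limma adjusted p = 0.277) and Ccl17 by -1.51 from WT N4 (limma adjusted p = 0.46).

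Of 20 other chemoattractant receptors listed, 11 were measured and 5 fell in wild-type cells with N4, with a list median of -0.89. Of all genes 23.5% were lower in that comparison and 17.2% higher, with a median of -0.1. The differences were -3.99 for Cmklr1, the chemerin receptor of macrophages, -3.38 for the fractalkine receptor Cx3cr1, -3.11 for Ccr1, -2.76 for the scavenging receptor Ackr2 and -2.25 for Ccrl2. Ccr7, the lymph node homing receptor of naive T cells and mature dendritic cells, did not share this: it read 12.86 and 13.19 in WT UN and 12.73 and 12.94 in WT N4 cells (-0.19, limma adjusted p = 0.422). Ccr2 (-0.89), Gpr183 (-0.38), Ccr10 (-0.27), Ackr1 (-0.24) and Ackr4 (0.97) did not pass either. Gpr183, the oxysterol receptor that positions lymphocytes at the edge of follicles, was lower in p50 cRel DKO N4 than in PKC theta KO N4 cells by 1.02 (SE 0.16, limma adjusted p = 0.041), a call that held in 4 of 19 alternatives and was lost without any single array of any group, with adjusted p up to 0.452.

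On the deposited scale most of the genes listed as acting downstream of the receptors were called lower with N4. Of 31 measured signalling genes 17 fell and 2 rose, against 23.5% and 17.2% of all genes. The list's median was -0.58. With median-centred arrays only 4 fell and 2 rose, and the list's median was -0.18. There 61.1% of the 3703 called genes were higher and the median of all genes was 0.30. Dock2, the Rac activator that chemokine receptors use for movement, fell by 1.54 (SE 0.12), and Rgs18 and Rgs14, which switch off G proteins, differed by -3.75 and -1.35, the latter just lost with median-centred arrays (-0.95). Rgs16, of the same family, rose by 1.68 (SE 0.15) in wild-type cells and was higher in the double knockout than in WT N4 cells by 1.47 (SE 0.15, limma adjusted p = 0.00416) and than in the PKC theta knockout by 1.19 (limma adjusted p = 0.0184). It read 12.15 and 12.43 there, above all other arrays. The first of these calls was lost without p50 cRel DKO N4 replicate 2 (1.33) and with median-centred arrays (1.46). The second was lost without any single array of either knockout (1.05 to 1.33), with median-centred arrays (1.18) and without the mean-variance trend. Their adjusted p ran up to 0.0904 and 0.303 over the alternatives.

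Other homing receptors fell beside the chemokine receptors. Of 12 measured 9 were lower with N4 and 0 higher, against 23.5% and 17.2% of all genes. The list's median was -1.04, and 5 were lower with median-centred arrays. The sphingosine phosphate receptors S1pr1, which lets T cells leave lymphoid organs, and S1pr4 differed by -4.12 and -2.12, and the integrin chains Itgae and Itga4, which serve gut homing and retention, by -4.07 and -3.37. S1pr1 read 7.78 and 8.62 in the double knockout and 6.55 and 7.33 in WT N4 cells (1.26, limma adjusted p = 0.493). The B cell, dendritic cell and macrophage, and neutrophil markers, with medians of -4.23, -3.81 and -4.19 in the wild-type comparison, moved with the signalling, homing and transcription factor lists, and their part in these was not tested.

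Of 22 measured transcription factors tied to receptor expression, 11 fell and 3 rose, against 23.5% and 17.2% of all genes. The list's median was -0.79. With median-centred arrays 7 fell and 3 rose, with a median of -0.39. Klf2, which drives S1pr1 and keeps naive T cells recirculating, fell by 5.55 (SE 0.22, limma adjusted p = 6.28e-06), while Bcl6, the factor of follicular cells, differed by -3.11 and Klf3 by -2.64. Tbx21, which encodes T-bet, an activator of Cxcr3, rose by 2.61 (SE 0.27, limma adjusted p = 0.000156), while Cxcr3 itself differed by -0.18. Klf2 was higher in the double knockout than in WT N4 cells by 1.77 (SE 0.22, limma adjusted p = 0.0129), a call that held in 15 of 19 alternatives. It was lost without WT N4 replicate 1 (1.68) and without p50 cRel DKO N4 replicate 1 (1.55) or 2 (1.98), and with median-centred arrays (1.76), with adjusted p up to 0.154. Klf2 was the 1 factor of the 22 called there, against 0.248% of all genes higher and 0.272% lower. In PKC theta KO N4 cells Klf2 also read above WT N4 cells, by 1.28 (SE 0.22, limma adjusted p = 0.252). Between the 2 knockouts it differed by 0.48 (limma adjusted p = 0.712). Ccr9 differed by 0.10 between PKC theta KO N4 and WT N4 cells, so the 2 genes did not move together in that knockout.

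Of the lists of cell type markers, 5 of 9 CD8 T cell genes rose with N4, among them Cd28 (2.47), Cd8a (1.07), Cd2 (0.75) and Thy1 (0.75). Of all genes 17.2% were higher and 23.5% lower there. Cd2 was lower in the double knockout than in WT N4 cells by 0.98 (limma adjusted p = 0.0206) and than in the PKC theta knockout by 1.03 (limma adjusted p = 0.022). Each of these was lost without any single array of the groups compared, with adjusted p up to 0.451 and 0.452, and that of Thy1 without WT N4 replicate 1 (0.58). The Cd2 calls were also lost with median-centred arrays or without the mean-variance trend. Without WT UN replicate 1 the rise of Cd28 was 1.54. The B cell genes Fcmr, Ebf1, Cd22 and Cd72 differed by -5.11, -3.58, -4.31 and -3.26, the myeloid genes Csf1r, Mmp12, Cd14 and Fcgr3 by -4.76, -4.65, -4.07 and -3.92, and the neutrophil genes S100a9, S100a8, Mmp8 and Mpo by -6.93, -5.58, -5.29 and -3.45, and all 12 passed as lower. Of 5 CD4 T cell genes 2 rose (Ctla4 2.78, Cd40lg 1.56) and 3 fell, with St8sia6 at -4.92 and Zbtb7b at -1.90. Of 5 NK and innate genes Cd160 rose (2.21), Tyrobp (-5.32) and Fcer1g (-4.20) fell, and Klrk1 (0.95) did not pass. The rise of Cd160 was 1.07 without WT UN replicate 1 and 3.35 without replicate 2. All 4 erythroid and platelet genes fell, with differences of -5.38 for Ppbp, -4.65 for Pf4, -3.21 for Car2 and -1.59 for Hbb-b2, the last just lost without WT UN replicate 2 (-1.50).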

How the data were processed

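The authors' deposited values are intensity values, 1 linear signal per probe set; per the submitters' processing notes, MAS5 and GCOS 1.4 produced them; in the values every array has a 2% trimmed mean of 500. Values were used as deposited, as log2(signal + 16). Probe sets with a mean under the 40th percentile (5.38) were left out, and the probe set with the highest mean was used for each gene. All 8 arrays entered 1 limma 3.58.1 fit (R 4.3.3; a coefficient per group, mean-variance trend, 4 residual degrees of freedom), adjusted by Benjamini-Hochberg over 12520 genes at 0.05. The fit was tested on simulated data. Groups come from the sample titles. Alternatives changed the pseudocount, scaling, filter, probe set rule, trend, arrays and block. The receptors and lists were chosen with earlier results of these data known. Named genes were the 8 receptors, Rel and Prkcq, the 3 genes most like each receptor, all measured ligands and other receptors, and up to 4 genes per further list with the lowest p (up to 2 in later comparisons where called). Fyco1, Lztfl1, Cd3e, Cd8b1, Cd79a, Xist, Eif2s3y and, in the knockouts, S1pr1 were added after their values were seen. Promoter windows are RefSeq's; the arrays limit precision by their number.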

Additional observations from a re-analysis of the deposited data

How the results depend on the processing

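Across alternatives the 4 wild-type receptor calls (Ccr9, Ccr6, Cxcr4, Cxcr5) held in 19 of 19, and the count of 4 became 7 with quantile normalization. Where 1 array was left out, the lone array of that group is assumed to vary like the other groups. In the double knockout against WT N4 the count of 1 receptor became 0 with pseudocount 64, no filter, the mean of a gene's probe sets, no mean-variance trend or every probe set as a feature, and ran from 0 to 1 with 1 array left out; against the PKC theta knockout it became 0 without the trend, 2 with only the 2 groups compared, and ran from 0 to 2 with 1 array left out. The cause was not tested.

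Counts over all genes moved too. With every probe set as a feature they were 7939 (WT N4 against WT UN), 8142 and 7705 (PKC theta KO N4 and p50 cRel DKO N4 against WT UN) and 35 (double against PKC theta knockout). The main 3 of PKC theta KO N4 against WT N4 became 1 with pseudocount 1, quantile normalization or no filter, 0 without the trend, and 0 to 5 with 1 array left out. The main 65 of the double knockout against WT N4 became 36 with median centring, 35 without the trend and 13 to 77 with 1 array left out. The main 54 against the PKC theta knockout became 28 without a filter, 17 without the trend, 98 with only the 2 groups and 0 to 65 with 1 array left out. With 1 array left out the 4917 of the double knockout against WT UN ran from 3229 to 4987.

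Signs turned only for receptors that did not pass. Median centring gave 0.22 for Cxcr3 in WT N4 against WT UN, and 0.09 for Ccr4 and 0.01 for Ccr8 in the double knockout against WT UN. With 1 array left out Cxcr3 ran from -0.57 to 0.21 in the wild-type comparison and from -0.24 to 0.54 in the double knockout against WT UN; there Ccr4 ran from -0.73 to 0.14 and Ccr8 from -1.27 to 0.52. In PKC theta KO N4 against WT N4 Ccr9 ran from -0.31 to 0.51, Ccr8 from -0.29 to 0.63, Cxcr4 from -0.32 to 1.41 and Cxcr6 from -0.52 to 0.91, and Ccr4 against WT UN from -0.39 to 0.48.

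With the replicate number as a block (replicate block), 2 receptors, Ccr9 and Cxcr5, were called in each comparison of the double knockout with another N4 group, and 200 and 152 genes in all against WT N4 and the PKC theta knockout. Other receptor calls gained under the block were Cxcr6 in wild-type cells (limma adjusted p = 0.0143) and Cxcr6 and Cxcr3 in PKC theta KO N4 against WT UN (limma adjusted p = 0.0308 and 0.0447). Deviations of same-numbered arrays from their group means correlated at 0.25 to 0.58 over 6 pairs of groups, and with 2 numbers the labels do not show that these pair the samples. Dim signals limit Ccr4 and Ccr8.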
